A study of Rattus norvegicus with 10 samples.

Results

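The genes described here are those of the extracellular matrix and of cell adhesion to it in cultured rat pancreatic islets: collagens, laminins, integrins, matrix metalloproteinases (Mmp), their tissue inhibitors (Timp) and the Adamts proteases. They were chosen by their symbol in the array's annotation (Col, Lama, Lamb or Lamc followed by a digit, Itga, Itgb, Mmp, Timp or Adamts) and by having a value in at least 3 samples of each group. Of 9974 genes that could be tested in the series, 80 met this rule. They comprised 21 collagens, 7 laminin chains, 10 integrin alpha and 5 integrin beta subunits, 18 Mmp genes, 2 Timp genes, 14 genes of the Adamts and Adamtsl families, and 3 genes that carry one of the prefixes but encode binding proteins. Another 19 genes carried a fitting symbol without enough values, and all 19 had at most 2 values among the control samples and at least 3 among the others. They were the collagens Col8a1, Col10a1, Col11a2, Col17a1 and Col22a1, the laminins Lamb3 and Lamc3, the integrins Itga10, Itga11 and Itgal, the proteases Mmp8, Mmp11, Mmp28, Adamts3, Adamts15, Adamts16, Adamtsl1 and Adamtsl2, and the inhibitor Timp2. Of the 80 genes, 78 had a value in all 10 samples, and Mmp1 and Mmp21 lacked 2 each.

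The islets came from male Sprague-Dawley rats, and each sample was a pool of about 200 islets from one of 5 independent groups per virus. One group of 5 samples received an adenovirus with Nkx6.1, which encodes a homeobox protein of β cells that binds DNA, under the CMV promoter. The other 5 received the same kind of virus with the enzyme β-galactosidase (bGAL), so both groups carried an adenovirus, and no islets without virus were compared here. The CMV promoter is active in many cell types, so the transgene was not confined to β cells by its promoter. Virus was present for 18 h and the culture then went on for 60 h without it, in RPMI medium with 8 mM glucose and 10% fetal calf serum. The labels state the rats' weight and no age.

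The extracellular matrix around and inside an islet lies mainly in the basement membranes of its capillaries and in a thin capsule. Type IV collagen and laminins build these basement membranes, fibrillar collagens build the interstitial matrix made by fibroblasts and stellate cells, and integrins, which are pairs of 1 alpha and 1 beta subunit, bind islet cells to both. Mmp and Adamts enzymes cut matrix proteins, and Timp proteins block them. During islet isolation much of this matrix is removed by collagenase, and cultured islets are known to lose more of it.

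Each sample was labelled in Cy5 and hybridised with one rat reference RNA in Cy3, and a value is the log2 ratio of the 2 channels, centred, as the values show, so that the median of each probe is 0. A value of 0 is therefore the middle of the 10 samples and no absolute level can be read, and the islet label could not be checked against levels of its hormone genes. Signs rest on a ratio of islet over reference, a direction that is likely but that the labels do not state. The number of arrays limits the precision. The arrays fell into 2 technical sets by the share of probes without a value, which was 27.3% to 32.5% in array set 1 (bGAL replicates 1, 2, 3 and 5 and Nkx6.1 replicate 1) and 0.816% to 9.13% in array set 2 (bGAL replicate 4 and Nkx6.1 replicates 2 to 5). The set was thus largely aligned with the group, and differences within each set are given beside the results. A floored probe is one with the same value, to 4 decimals, in 3 or more samples. Values shared by fewer samples were not counted as floored, for example in Itga8, Lama5, Col7a1 and Mmp19, where bGAL replicate 3 and Nkx6.1 replicate 1 were equal. Of the 80 genes, 44 (55%) had at least 1 floored probe, against 40.7% of all genes tested. Of the 49 floored probes, 25 stood at the floor in all 5 arrays of set 1 and 35 in no array of set 2, and values at the floor have no order among themselves.

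None of the 80 genes passed the threshold of 0.05 for the adjusted p (limma, Benjamini-Hochberg over all 9974 genes), where 0.11% of all genes passed as higher and 0.0401% as lower with the Nkx6.1 virus. The median log2 difference (Nkx6.1 minus bGAL) of the 80 was 0.0016, with 40 higher and 40 lower, against −0.052 over all genes. At an unadjusted p under 0.05, 8 of the 80 were higher (10%, against 4.54% of all genes) and 3 were lower (3.75%, against 5.1%). The 8 were Mmp14, Adamts5, Adamts12, Col8a2, Col9a1, Col18a1, Itga8 and Itga1, and the 3 were Itgb1, Mmp12 and Timp1. The spread between samples was wide, with a median SE of 0.35 for the 80 differences. The gene with the smallest p was Mmp14, and it alone had groups that did not overlap, 1 of 80 genes (1.25%) against 3.93% of all genes.

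**Figure D1:**
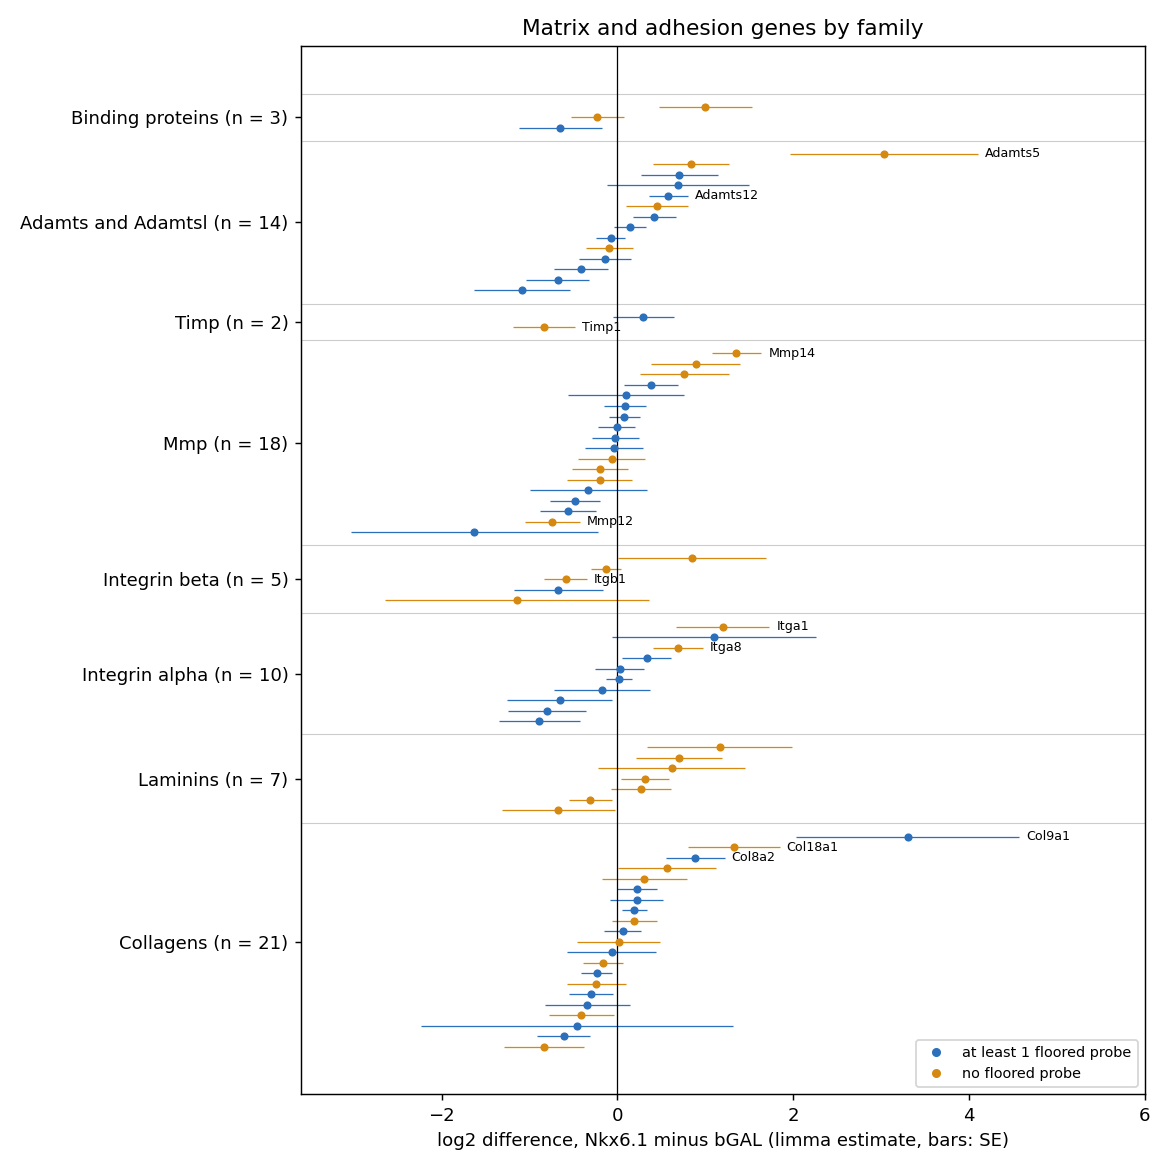
Log2 difference between the Nkx6.1 and bGAL groups (horizontal axis, limma estimate with its SE as a bar) for each of the 80 genes, sorted within families, with n genes per family. Blue points have at least 1 floored probe and orange points none, the 11 genes with an unadjusted p under 0.05 are named, and 52 of the 80 points lie more than 0.25 from 0.

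Among the proteases, Mmp14 encodes a metalloproteinase anchored in the cell membrane that cuts fibrillar collagen at the cell surface and activates the secreted gelatinase pro-MMP2. Its value was −0.92, −0.55, −0.24, −0.41 and −0.68 in bGAL replicates 1 to 5. In Nkx6.1 replicates 1 to 5 it was 0.50, 1.74, 0.24, 0.60 and 0.91. The lowest Nkx6.1 sample lay above the highest control, with a mean of 0.795 ± 0.58 against −0.56 ± 0.26 (SD, n = 5 per group). The log2 difference was 1.35 ± 0.28 (SE), which is 2.56-fold, and it ranked 52 by p among all genes with a limma adjusted p of 0.15. The exact two-sided permutation p was 0.0079, the smallest that 5 against 5 samples can give. This and every other permutation p given here exchanged all 10 samples regardless of array set, so it does not separate group from array set. Within array set 1 the difference was 1.10 and in array set 2 it was 1.28. Mmp14 passed with quantile normalisation between arrays (1.44, limma adjusted p = 0.044, where 0.271% of genes passed) and with array weights (1.11, limma adjusted p = 0.019, where 5.79% passed). Adding the array set to the fit gave 1.19, with a limma adjusted p of 0.93. Of the stellate cell and fibroblast markers, the pericyte genes Cspg4 and Rgs5 had the smallest p. They differed by 0.97 and 1.06 (limma adjusted p = 0.18 and 0.19) and were picked by p from a list of 10 with a median of 0.019. Of the others in that list, Tagln, Vim and Des were higher, and Pdgfra, Pdgfrb, Dcn, Lum and S100a4 were lower. The part of these markers in the Mmp14 difference was not tested.

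Of the other measured metalloproteinases of the membrane-anchored kind, Mmp15, Mmp16, Mmp17 and Mmp25 had log2 differences of 0.08, −0.48, −0.20 and −0.02 with SEs of 0.18, 0.28, 0.32 and 0.27. These 4, like others outside the rule for named genes, were named after their values were seen. Mmp12, the macrophage metalloelastase, was at 0.21, 1.24, 0.45, 0.05 and −0.15 in the bGAL samples and at −0.56, −1.11, −0.23, 0.11 and −0.13 in the Nkx6.1 samples, in replicate order. The groups overlapped, with 3 of 5 Nkx6.1 samples below all bGAL samples. The log2 difference of Mmp12 was −0.74 ± 0.32 (SE, limma adjusted p = 0.51), with −0.999 in array set 1 and −0.39 in array set 2, and both of its probes were lower (−0.68 and −0.80). Markers of macrophages and other leukocytes moved with it. All 12 measured markers were lower with the Nkx6.1 virus, none past the limma adjusted threshold. At an unadjusted p under 0.05 there were 4, where 5.1% of all genes were lower. The median log2 difference of the 12 was −1.14 in array set 1 and −0.48 in array set 2. Of the 12, 7 had the same sign within both sets, a share near that of all genes. None of the 12 alone had groups that did not overlap. Leukocyte integrin beta subunits, which are not in this list, went both ways. Itgb2 was higher with the Nkx6.1 virus, also within both array sets, and Itgb7 was lower, with probes of both signs. The mean of the markers per sample ran from 0.22 to 0.76 in the bGAL samples and from −0.68 to −0.37 in the Nkx6.1 samples. Fewer such cells and less RNA per cell cannot be told apart in bulk islets, and the part of either in the Mmp12 difference was not tested.

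A pair of secreted enzymes of broad range had higher means without passing. Mmp10 (stromelysin 2) was at −0.93, −1.05, 1.36, 0.17 and −0.70 in the bGAL samples and at 1.77, 0.56, −0.13, 0.53 and 0.56 in the Nkx6.1 samples. The groups overlapped, with bGAL replicate 3 above 4 of the 5 Nkx6.1 samples. Between groups Mmp10 differed by 0.89 ± 0.51 (SE, limma adjusted p = 0.56), and the difference was 2.10 in array set 1 and 0.21 in array set 2. Mmp9, the gelatinase that cuts type IV collagen, ranged from −1.58 to 0.82 in the bGAL samples with a median of −0.98, and from −0.56 to 1.35 in the Nkx6.1 samples with a median of 0.09. Its log2 difference was 0.76 ± 0.51 (SE, limma adjusted p = 0.58), 0.48 without Nkx6.1 replicate 2, 0.50 without bGAL replicate 5 and 0.074 with array weights. The remaining 14 Mmp genes had log2 differences between −1.63 and 0.38, with 4 higher and 10 lower, and the smallest adjusted p among them was 0.56. The most negative of these, Mmp7 (matrilysin), rested on bGAL replicates 1 and 2, at 6.35 and 2.34, while the other 8 samples lay between −1.63 and 0.22. As a family the 18 Mmp genes had a median log2 difference of −0.03.

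Of the tissue inhibitors, Timp1, a secreted inhibitor of most Mmp enzymes, was at 0.19, −0.19, 0.21, 0.62 and 0.40 in bGAL replicates 1 to 5. In Nkx6.1 replicates 1 to 5 it was at −0.71, −1.76, −0.38, 0.36 and −0.47. Nkx6.1 replicate 4 lay within the control range, and the other 4 Nkx6.1 samples lay below all controls. The log2 difference was −0.84 ± 0.35 (SE, limma adjusted p = 0.51), with −0.86 in array set 1, −1.18 in array set 2, −0.55 when Nkx6.1 replicate 2 was left out and −0.37 with array weights. Timp3, the inhibitor that binds to the matrix itself, had a floored probe with all 5 arrays of set 1 at the floor. Its log2 difference of 0.29 ± 0.35 (SE, limma adjusted p = 0.71) came from Nkx6.1 replicate 2 at 1.61, and without that sample it was −0.054.

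**Figure D2:**
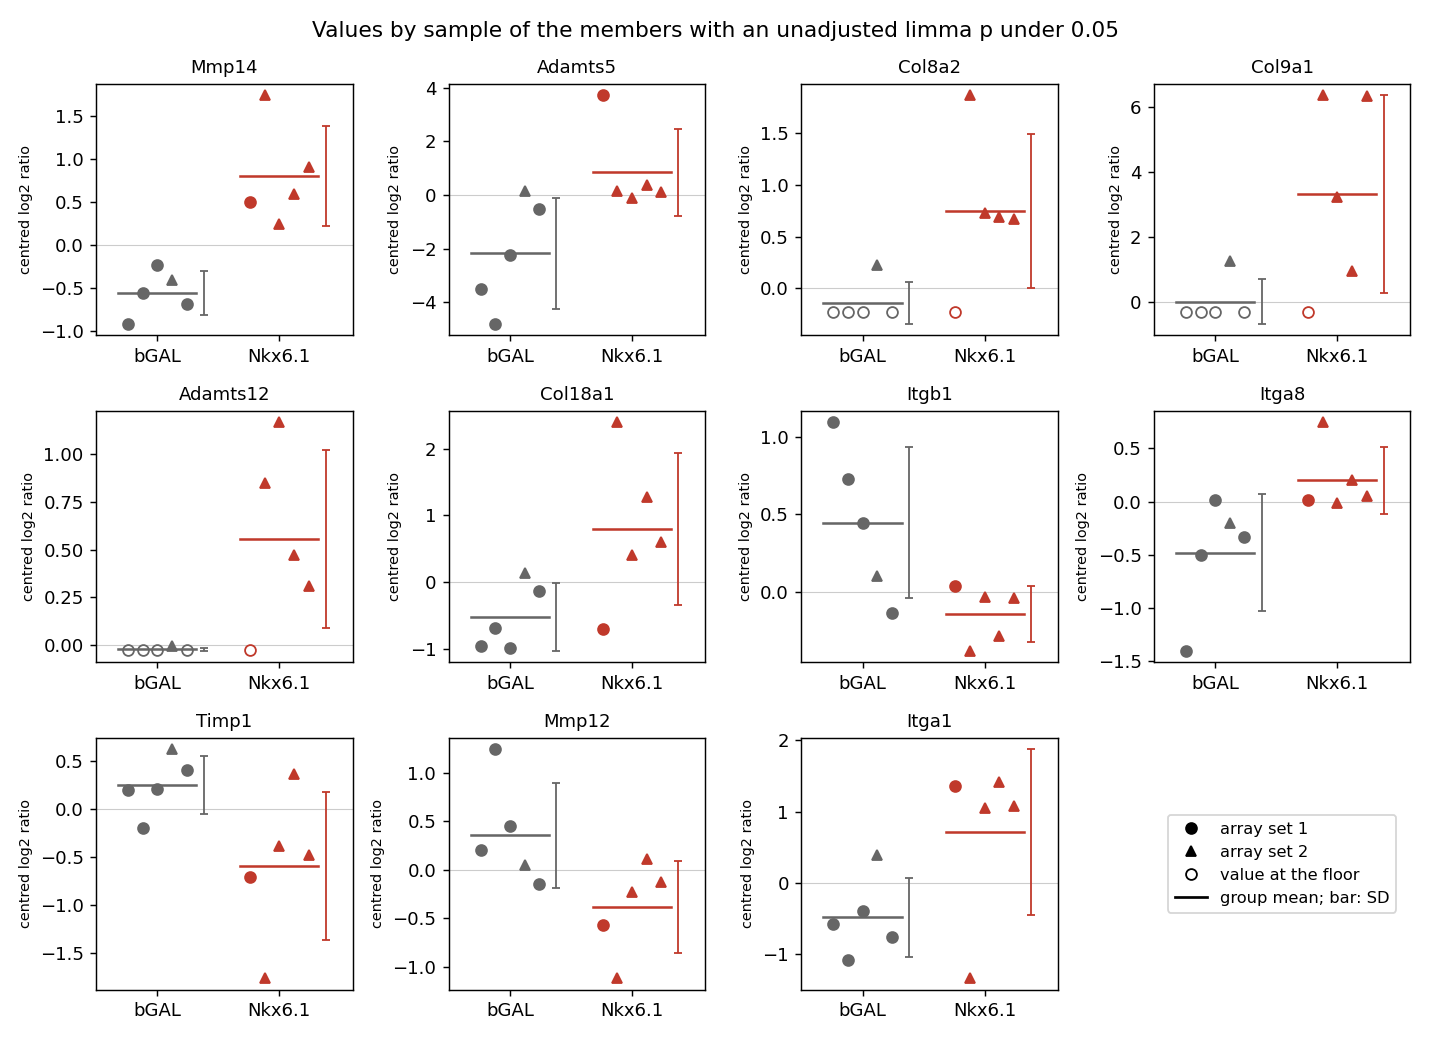
Centred log2 ratio (vertical axis) of the 11 genes with an unadjusted limma p under 0.05, by group, with replicates 1 to 5 from left to right, circles for array set 1, triangles for array set 2 and open symbols for values at the floor. Horizontal lines are group means and bars are SD (n = 5), and only Mmp14 shows groups that do not overlap.

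Adamts5, an aggrecanase that cuts proteoglycans, had the second smallest p of the 80 genes. Its value was −3.51, −4.81, −2.24, 0.16 and −0.51 in bGAL replicates 1 to 5 and 3.73, 0.15, −0.11, 0.38 and 0.11 in Nkx6.1 replicates 1 to 5. The low values all belonged to bGAL arrays of set 1 and the highest value to the only Nkx6.1 array of that set, whereas all 5 arrays of set 2 lay between −0.11 and 0.38. The log2 difference was 3.03 ± 1.07 (SE, limma adjusted p = 0.47), with 6.501 in array set 1 and −0.031 in array set 2. Adamts12, a protease of cartilage matrix proteins, stood at the floor of both its probes in all 5 arrays of set 1. Its log2 difference of 0.58 ± 0.22 (SE, limma adjusted p = 0.49) thus compared Nkx6.1 replicates 2 to 5, at 0.85, 1.17, 0.47 and 0.31, with bGAL replicate 4, at −0.0071, and with the floor at −0.027. Adding the array set to the fit gave 0.35.

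For the other 12 Adamts and Adamtsl genes the log2 difference ran from −1.09 to 0.84, with 6 higher and 6 lower. Adamts1, an inducible aggrecanase, differed by 0.45 ± 0.35 (SE, limma adjusted p = 0.61), and Adamts2, which removes the amino-terminal propeptide of fibrillar procollagens, by −0.68 ± 0.36 (SE, limma adjusted p = 0.55). Adamts2 and Adamts8, the gene at −1.09, stood at the floor in all arrays of set 1. Within array set 2 they differed by −0.34 and 0.32. The median of the 14 genes was 0.28, and 0.020 without bGAL replicate 2. Within array sets 1 and 2 it was 0 and 0.13.

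Among the collagens, the 4 measured chains of basement membranes and network-forming collagens were Col4a1, Col7a1, Col8a2 and Col18a1. Col18a1 encodes the basement membrane collagen whose carboxy-terminal fragment is endostatin. It was at −0.96, −0.69, −0.998, 0.14 and −0.14 in the bGAL samples and at −0.71, 2.40, 0.40, 1.28 and 0.60 in the Nkx6.1 samples, and Nkx6.1 replicate 1 was the only one that lay within the control range. The log2 difference of Col18a1 was 1.32 ± 0.52 (SE, limma adjusted p = 0.49). Within array set 1 it was −0.0091 and in array set 2 it was 1.03. Adding the array set to the fit gave 0.51. Col8a2, a network collagen of the cornea's Descemet membrane, stood at the floor of −0.23 in all 5 arrays of set 1, at 0.23 in bGAL replicate 4 and at 1.87, 0.73, 0.69 and 0.67 in Nkx6.1 replicates 2 to 5. Its log2 difference was 0.88 ± 0.34 (SE, limma adjusted p = 0.49), 0.76 in array set 2 and 0.38 with the array set in the fit. Col4a1, the main chain of type IV collagen, had 2 floored probes and differed by 0.22 ± 0.23 (SE, limma adjusted p = 0.68), with values between −0.81 and 0.06 in the controls and from −0.18 to 0.61 with Nkx6.1. Without bGAL replicate 5, the lowest sample, the difference of Col4a1 was 0.055, and without Nkx6.1 replicate 2 it was 0.091. Col7a1, the anchoring fibril collagen of skin, differed by 0.01 ± 0.47 (SE).

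The 8 fibrillar collagen chains had a median log2 difference of −0.27, and 7 of the 8 were lower, none past the adjusted threshold or at an unadjusted p under 0.05. Col3a1, the chain of type III collagen found with type I in soft tissue, was at 0.04, 0.18, 0.35, 0.02 and 0.23 in bGAL replicates 1 to 5. In the Nkx6.1 samples it was at 0.20, −1.50, −0.63, −0.04 and −0.25, so that 4 of 5 lay below all controls. The log2 difference of Col3a1 was −0.61 ± 0.30 (SE, limma adjusted p = 0.54), −0.0042 in array set 1, −0.63 in array set 2 and −0.35 when Nkx6.1 replicate 2 was left out. Its probes differed by −0.47 and −0.75, and the second was floored. Col1a2, a chain of type I collagen, differed by −0.16 ± 0.23 (SE, limma adjusted p = 0.76) and had no floored probe. Of the fibrillar chains, Col27a1 had the most negative difference, −0.84 ± 0.46 (SE, limma adjusted p = 0.55), and Nkx6.1 replicate 2 stood at −2.52 while the other 9 samples lay between −0.89 and 0.32. The fibrillar chains had a median in array sets 1 and 2 of −0.02 and −0.12.

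The fibril-associated collagens, which decorate the surface of fibrils, included the largest difference among the 80 genes. Col9a1, a chain of type IX collagen known from cartilage, stood at the floor of −0.29 in all 5 arrays of set 1 and at 1.25 in bGAL replicate 4. In Nkx6.1 replicates 2 to 5 it was at 6.35, 3.24, 0.96 and 6.34. The log2 difference was 3.30 ± 1.27 (SE, limma adjusted p = 0.49), 2.97 in array set 2 and 1.49 with the array set in the fit, and bGAL replicate 4 lay above Nkx6.1 replicate 4. Both probes of Col9a1 were floored and were higher, by 2.71 and 3.90. Col9a3, the other measured chain of type IX collagen, differed by 0.19 ± 0.14 (SE, limma adjusted p = 0.60). Values of Col12a1 spread most in this class, from −1.09 to 3.85 in the bGAL samples and from −0.80 to 7.78 in the Nkx6.1 samples, for a difference of −0.46 ± 1.77 (SE). Of its 4 probes, the 2 with at least 3 values per group differed by −0.70 and −2.37, so samples were averaged over unlike probes. The chains of type VI collagen, which form beaded filaments, differed by 0.19 (Col6a1), 0.56 (Col6a2) and −0.41 (Col6a3), with SEs of 0.26, 0.56 and 0.37. Over all 21 collagens the median was 0.01, with 11 higher and 10 lower.

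Laminins are assembled from 1 alpha, 1 beta and 1 gamma chain. Of the 7 measured chains, 5 were higher and 2 lower, with a median log2 difference of 0.31, and the smallest adjusted p was 0.59. Adding the array set to the fit turned the median to −0.064, and within array sets 1 and 2 it was −0.23 and −0.18. Lama5, an alpha chain of vascular basement membranes, was at −1.62, −1.34, 1.02, −0.18 and −0.02 in the bGAL samples and at 1.02, 0.45, −0.24, 0.10 and 0.02 in the Nkx6.1 samples. The value of 1.02 was the same in bGAL replicate 3 and Nkx6.1 replicate 1, so it may be a floor value. The groups of Lama5 overlapped, and the log2 difference was 0.70 ± 0.49 (SE, limma adjusted p = 0.59), 1.51 in array set 1, where that value enters both groups, and 0.26 in array set 2. It was 0.40 without bGAL replicate 1 and 1.06 without bGAL replicate 3. Lama1, the alpha chain of the embryonic basement membrane, had a difference of 1.16 ± 0.83 (SE, limma adjusted p = 0.59), set by Nkx6.1 replicate 1 at 3.98. The other 4 with Nkx6.1 ranged from −0.20 to 0.32 and the controls from −1.42 to 0.65, and without Nkx6.1 replicate 1 the difference of Lama1 was 0.37.

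The beta and gamma chains shared by most laminins showed no uniform direction either. Lamb1 differed by 0.27 ± 0.34 (SE, limma adjusted p = 0.73), and by −0.052 without Nkx6.1 replicate 2, which stood at 1.51. Lamc1, the common gamma chain, ranged from −2.15 to 0.34 in the bGAL samples with a median of −0.62, and from −2.87 to 1.84 in the Nkx6.1 samples with a median of 0.34. Its log2 difference was 0.62 ± 0.83 (SE, limma adjusted p = 0.75), −1.88 in array set 1 and 0.25 in array set 2. Leaving out Nkx6.1 replicate 1 gave 1.31, Nkx6.1 replicate 2 gave 0.13 and bGAL replicate 3 gave 0.26. In Lamc1 the 4 lowest of the 10 values were the arrays of set 1 other than bGAL replicate 5. Lamb2, the beta chain of mature vascular and synaptic basement membranes, differed by −0.67 ± 0.65 (SE).

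Of the integrins, Itgb1 encodes the beta 1 subunit, the partner of most collagen and laminin receptors. It was at 1.10, 0.73, 0.44, 0.10 and −0.14 in bGAL replicates 1 to 5. In Nkx6.1 replicates 1 to 5 it was at 0.03, −0.38, −0.03, −0.29 and −0.04. Every Nkx6.1 sample lay below 4 of the 5 bGAL samples, and 2 lay below all of them. The log2 difference was −0.59 ± 0.24 (SE, limma adjusted p = 0.51), −0.499 in array set 1 and −0.29 in array set 2. The exact permutation p of Itgb1, two-sided and not adjusted, was 0.048. Of the genes with an unadjusted limma p under 0.05, only Itga1 and Col9a1 had an exact permutation p above 0.05 (0.079 and 0.087). Itgb4, which pairs with the alpha 6 subunit in hemidesmosomes, was within 0.001 of 0, its floor, in the 5 arrays of set 1 and in Nkx6.1 replicate 2. Its log2 difference of −0.67 ± 0.50 (SE, limma adjusted p = 0.60) came from Nkx6.1 replicate 4 at −2.84, and without that sample it was −0.14. Itgb2, the beta subunit of leukocyte integrins, ranged from −2.28 to 2.14 in the bGAL samples with a median of 0.03, and from −0.27 to 2.61 in the Nkx6.1 samples with a median of −0.03. Its log2 difference was 0.85 ± 0.84 (SE, limma adjusted p = 0.67), and single samples moved it: it was 0.29 without bGAL replicate 1, 1.39 without bGAL replicate 3 and 0.41 without Nkx6.1 replicate 1. The 5 beta subunits had a median of −0.59, with 4 lower and 1 higher. That median was −0.18 without Nkx6.1 replicate 1 and −0.14 without Nkx6.1 replicate 4. In array sets 1 and 2 it was 0, the floor value of Itgb4, and −0.024.

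The alpha subunits give an integrin its ligand. Itga1, the alpha subunit of a collagen receptor with preference for basement membrane collagen, was at −0.57, −1.08, −0.39, 0.39 and −0.76 in the bGAL samples. It was at 1.36, −1.34, 1.05, 1.41 and 1.08 in the Nkx6.1 samples, 4 of which lay above all controls while Nkx6.1 replicate 2 lay below all of them. The log2 difference of Itga1 was 1.20 ± 0.53 (SE, limma adjusted p = 0.52). Without Nkx6.1 replicate 2 it was 1.71 with a limma adjusted p of 0.056. In the array weights that sample had the lowest weight (0.11, against 0.44 to 2.68 for the others). With these weights Itga1 passed (1.79, limma adjusted p = 0.011), as did 5.79% of all genes. The difference of Itga1 was 2.06 in array set 1 and 0.16 in array set 2. Itga8, a receptor subunit for matrix proteins with the RGD motif, was at −1.41, −0.50, 0.02, −0.20 and −0.33 in the bGAL samples and at 0.02, 0.75, −0.02, 0.21 and 0.05 in the Nkx6.1 samples. The groups overlapped, since bGAL replicate 3 had the same value as Nkx6.1 replicate 1 and lay above Nkx6.1 replicate 3. A shared value can be a floor value, though the definition used here asks for 3 samples. The difference of Itga8 in array set 1 rests on that value. The log2 difference was 0.68 ± 0.28 (SE, limma adjusted p = 0.51), 0.57 in array set 1, 0.44 in array set 2 and 0.45 without bGAL replicate 1.

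Laminin-binding subunits, known from β cells, gave no such pattern. Itga6 differed by −0.89 ± 0.46 (SE, limma adjusted p = 0.54), with Nkx6.1 replicate 4 at −2.37, by −0.24 with a term for the array set and by −0.46 without that sample. The probes of Itga6 with values in at least 3 samples per group were both floored and differed by −0.09 and −1.21. Another probe with fewer values also entered the mean, and from probes with all 10 values the difference of Itga6 was −0.65. Itga3 differed by 0.019 ± 0.15 (SE, limma adjusted p = 0.96) and was at its floor, within 0.001 of 0, in 6 samples. The sign of so small a difference turned when Nkx6.1 replicate 3 or 4 was left out and with a term for the array set. The other 6 alpha subunits had differences between −0.81 and 1.10, with 3 higher and 3 lower. At the positive end stood Itga2, a collagen receptor subunit, with its floor in all arrays of set 1 and in Nkx6.1 replicate 2, 4.56 in bGAL replicate 4 and 4.71, 2.68 and 2.66 in Nkx6.1 replicates 3 to 5. Within array set 2 its difference was −2.05. The 10 alpha subunits had a median of 0.02. Only 3 of them, Itga1, Itga7 and Itga8, had a probe that was not floored and enough values on it, with a median of 0.68.

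The 3 genes with a fitting prefix that encode no matrix or adhesion receptor protein were Itgb1bp1 and Itgb1bp2, whose proteins bind the tail of the beta 1 subunit, and Cert1, a ceramide carrier listed as Col4a3bp in the array's annotation. They differed by −0.23, −0.65 and 1.001, with limma adjusted p-values of 0.74, 0.60 and 0.55.

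**Figure D3:**
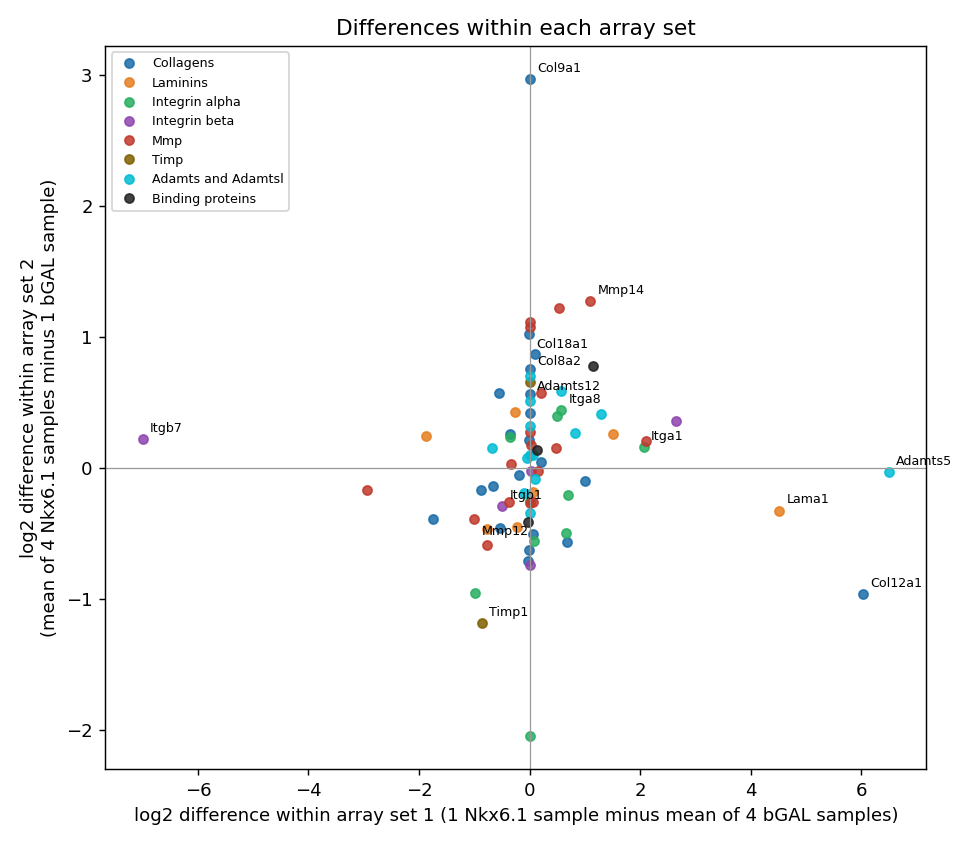
For each of the 80 genes other than Mmp1, which had no Nkx6.1 value in set 1, the log2 difference between groups within array set 1 (horizontal axis, 1 Nkx6.1 sample against 4 bGAL samples) and in array set 2 (vertical axis, 4 Nkx6.1 samples against 1 bGAL sample), coloured by family. Mmp14 lies at 1.10 and 1.28, Timp1 at −0.86 and −1.18, and genes at the floor throughout set 1 line up at 0 on the horizontal axis.

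Because each array set held a single sample of one group, no test was made within a set, and the values there describe direction and size. Of the 11 genes with an unadjusted p under 0.05, Mmp14, Itga8, Itgb1, Mmp12 and Timp1 had a difference of the same sign and over 0.25 in size within both sets. The 11 were chosen by p in these same samples, so the count is no separate support. At any size, 47 of the 80 genes and 5371 of all 9974 had the same sign within both sets. For Itga8 the only Nkx6.1 value of set 1 equalled that of bGAL replicate 3 and may be a floor value. Col8a2, Col9a1 and Adamts12 were at the floor in all of array set 1, so set 1 gave no difference for them. The differences of Col18a1, Adamts5 and Itga1 lay mostly in 1 set, set 2 for Col18a1 and set 1 for the others. In 13 of the 80, every array of set 1 rested on floor values alone. With the array set as a term, 4 of the 80 genes had an unadjusted p under 0.05, against 5.07% of all genes, and none passed the limma adjusted threshold.

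In each sample the mean over a family showed no separation of the groups. The 21 collagens had a mean of 0.03 ± 0.12 in the bGAL samples and 0.20 ± 0.15 in the Nkx6.1 samples (SD, n = 5 per group). For the laminins these means were −0.14 ± 0.31 and 0.16 ± 0.30, and for the 16 Mmp genes with 10 values they were −0.10 ± 0.21 and −0.13 ± 0.12. The Adamts mean was −0.21 ± 0.22 and 0.10 ± 0.27. Nkx6.1 replicate 2, which had the widest spread of values in the series (interquartile range 1.09 against 0.35 to 0.58), was the sample farthest from the median of the 10 in 23 of the 78 genes with 10 values (29.5%, against 43.0% of all genes).

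**Figure D4:**
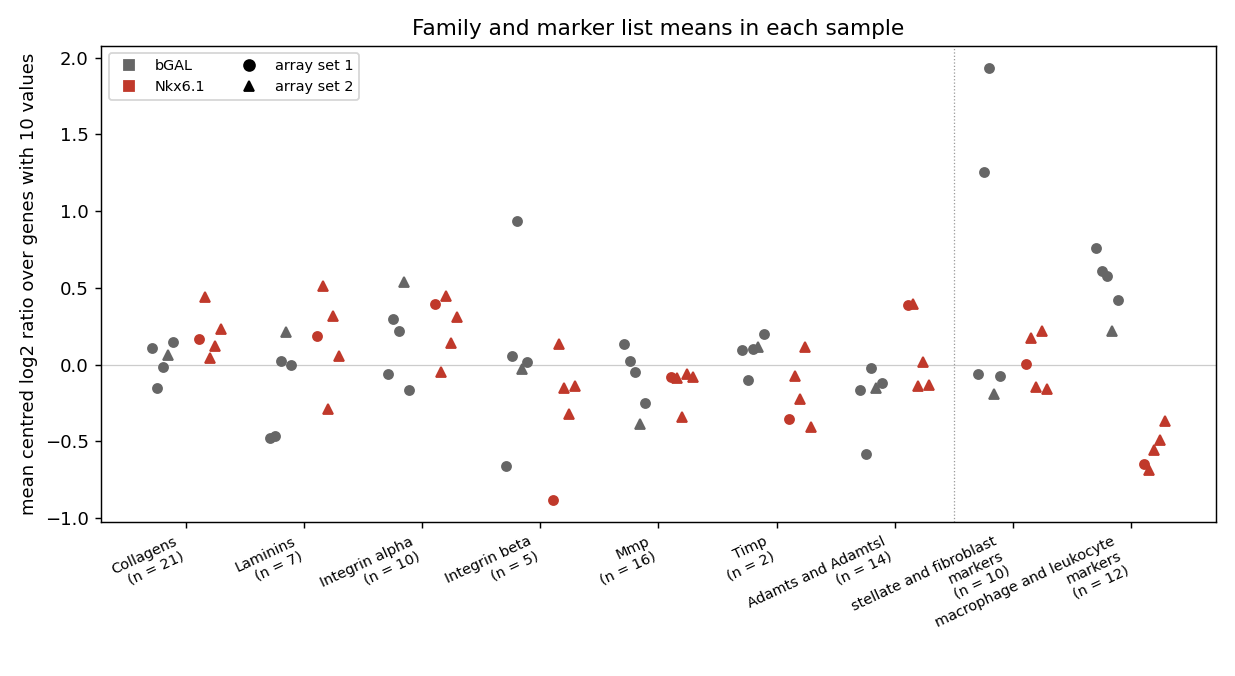
Mean centred log2 ratio (vertical axis) over the genes with 10 values of each family, and of the stellate and fibroblast and the macrophage and leukocyte markers, in each sample, grey for bGAL and red for Nkx6.1, circles for array set 1 and triangles for array set 2. The groups overlap in all 7 families, while the leukocyte means run from 0.22 to 0.76 with bGAL and from −0.68 to −0.37 with Nkx6.1.

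Genes of the same pathways outside these families gave a similar picture, with 0 past the limma adjusted threshold in each list and at most 2 per direction at an unadjusted p under 0.05. Of 24 measured further matrix proteins (fibronectin, nidogens, proteoglycans and others), 12 were higher and 12 lower, with a median log2 difference of −0.0069. The smallest p-values of that list belonged to Matn2 (−12.83, limma adjusted p = 0.28) and Efemp2 (0.59, limma adjusted p = 0.33). Its mean per sample, over 23 genes with 10 values, was 0.73 ± 0.61 with bGAL and −0.0078 ± 0.18 with Nkx6.1 (SD, n = 5 per group). These groups overlapped. Enzymes and chaperones of collagen synthesis and crosslinking had a median of 0.16 with 9 of 15 higher. Their smallest p-values belonged to the collagen chaperone Serpinh1 (0.82, limma adjusted p = 0.25) and the lysyl hydroxylase Plod2 (−0.95, limma adjusted p = 0.48). Components of the integrin adhesion complex had a median of 0.03 with 11 of 19 higher, and the plasminogen system and other proteases one of 0.13 with 11 of 19 higher, among them Plat, tissue plasminogen activator (0.95, limma adjusted p = 0.34). Genes of TGF-β signalling, a known inducer of matrix genes, had a median of 0.07 with 4 of 8 higher, and other matrix receptors one of 0.18 with 8 of 15 higher.

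Markers of other cells that make or remodel matrix were read in the same fit. The 10 stellate and fibroblast markers were split 5 to 5, with a median log2 difference of 0.019. Their mean per sample ran from −0.19 to 1.94 in the bGAL samples and from −0.16 to 0.22 in the Nkx6.1 samples. The highest means, 1.25 and 1.94, were those of bGAL replicates 2 and 3. Such a mean can rest on a single gene, and Dcn alone differed by −6.11 ± 3.63 (SE, limma adjusted p = 0.56). The 6 endothelial markers had a median log2 difference of −0.07, the 7 duct markers −0.06 and the 10 acinar markers 0.43, with 8 of the acinar markers higher. Their part in the differences above was not tested.

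By gene order in the rat RefSeq annotation (GRCr8), 18 of the 80 genes lay in 5 groups of neighbours with at most 2 coding genes between them. Among them were 9 Mmp genes in 1 cluster, where Mmp10 and Mmp12, at 0.89 and −0.74, had opposite signs and the other 7 lay between −1.63 and 0.38. The neighbours Itga1 and Itga2 differed by 1.20 and 1.10 between groups, Adamts1 and Adamts5 by 0.45 and 3.03, Col3a1 and Col5a2 by −0.61 and −0.24, and Col6a1, Col6a2 and the nearby Col18a1 by 0.19, 0.56 and 1.32. Each of these groups other than the Mmp cluster thus had 1 sign, with Col5a2, Col6a1, Col6a2, Adamts1 and Itga2 at an unadjusted limma p above 0.2.

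Where a gene had several probes with at least 3 values per group, the probes could be compared. Of 14 such genes, 9 had probes of 1 sign and 5 (Adamtsl3, Itga7, Itgb7, Mmp1 and Mmp3) had probes of both signs. The probes of Itgb7, a leukocyte integrin subunit, differed by −3.33 and 1.05, and the gene's difference of −1.14 is their mean, with Nkx6.1 replicate 1 at −7.13. Mmp3 (stromelysin 1) had probes at 0.21, −0.19 and −1.70, the last floored.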

How the data were processed

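Values were the authors' deposited log2 ratios of two-colour Operon rat 27K arrays (500 ng of islet RNA amplified and labelled with Cy5, common reference in Cy3, no dye swap, per the labels). No source used here gives the background correction or normalisation. Scale and centring were found from the values: all 17744 probes that had 10 values were centred on a median of 0 (tolerance 0.001), array medians lay between −0.0028 and 0, and 103 values stood 13.29, which is a power of 10 on the base 2 scale, above a probe's floor and 4 that far below it (tolerance 0.005). Pairs of arrays had a Pearson r from −0.11 to 0.36 and a Spearman rho from −0.48 to 0.44. For direction, floored probes were set against their mean in array set 2: 5 of 6 probes of islet and neuroendocrine genes and 0 of 6 of cell division genes lay above the floor, against 3974 of 7209 in all, so the ratio is likely islet over reference.

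The 22 control probes were left out. Of 26962 others, 15807 had 1 symbol and 11155 none, and 3713 symbols were updated through RefSeq (GRCr8). Probes of a gene were averaged in each sample over the values present, so samples could rest on different probes of the same gene. Differences were fitted with limma 3.58.1 in R 4.3.3 on all genes with at least 3 values per group, two-sided, with Benjamini-Hochberg adjustment. Named were the genes with an unadjusted p under 0.05, those with the smallest p of each family (4 collagens, 2 laminins, 3 alpha and 2 beta integrins, 3 Mmp, 2 Adamts, every Timp) and a list fixed by name; others singled out were chosen after their values were seen. The members, lists, array sets and alternatives were chosen with earlier results of these data known. Alternatives were quantile normalisation, array weights, an array set term, a replicate block, the most variable probe, no floored probes, 10 values only and leaving out each sample. On simulated data for this comparison (9974 genes), the test called 16 of 100 genes with a log2 difference of 1, 52 of 100 with one of 2 and 4 unchanged genes. The simulated noise was normal and independent between samples, with the residual SD of each gene. It held no floored values, no effect of the array set and no array of wider spread. The counts therefore do not give the power or the rate of false calls in the real data. Tables and plots were made with matplotlib 3.10.9, pandas 2.3.3 and numpy 2.4.6 in Python 3.11.15.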

Additional observations from a re-analysis of the deposited data

Results flagged for a closer look

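In groups of 5, a sample was marked where its gap to the nearest other sample exceeded 0.71 of the group's range (Dixon's test). Of 62 groups examined (24 genes and 7 family means), 16 were marked. In untied values chance marks about 1 in 20, a rate that does not hold here: in 6 of the marked groups the other 4 samples were tied at the floor within 0.001, so any sample off the floor was marked. Of the marks, 7 fell on bGAL replicate 4, the only control array of set 2, each for a gene with floored probes. It stood at 0.23 for Col8a2 and 1.25 for Col9a1, with the other controls at −0.23 and −0.29, at −0.0071 for Adamts12, with the others at −0.027, at −0.38 for Itga6 (others 0.30 to 0.46), and at 0.37 for Itga3, −0.14 for Itgb4 and −0.39 for Timp3, with the others within 0.001 of 0. Nkx6.1 replicate 2 was marked 3 times, at 1.51 for Lamb1 (others −0.29 to 0.23), −1.34 for Itga1 (others 1.05 to 1.41) and 1.61 for Timp3 (others −0.33 to 0). Nkx6.1 replicate 1 stood at 3.98 for Lama1 (others −0.20 to 0.32) and 3.73 for Adamts5 (others −0.11 to 0.38). The remaining marks were Col4a1 in bGAL replicate 5 at −0.81 (others 0.02 to 0.06), Itgb4 in Nkx6.1 replicate 4 at −2.84, the Mmp mean in Nkx6.1 replicate 3 at −0.34 (others −0.09 to −0.06) and the Adamts mean in bGAL replicate 2 at −0.58 (others −0.17 to −0.02).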

How the results depend on the processing

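Of the 80 genes, 1 (Mmp14) passed with quantile normalisation, where 0.271% of all genes passed. With array weights 5 passed (Mmp14, Col8a2, Col18a1, Itga1 and Adamts5), at differences of 1.11, 0.82, 1.32, 1.79 and 3.54. Over all genes 5.79% passed with array weights, a share near that of the 80. None passed under the other alternatives, without any 1 sample included. Over all genes, 11 rose and 4 fell. These counts were 23 and 4 with quantile normalisation, 263 and 314 with array weights, 3 and 0 with the array set term, and 2 to 29 and 0 to 11 without 1 sample (29 and 7 without Nkx6.1 replicate 2, and 7 and 11 without bGAL replicate 4). With the replicate block 0 rose and 0 fell (811 genes at an unadjusted p under 0.05). Replicate numbers were not shown to pair samples: 2 of 5 same-numbered pairs had r over 0.1 and 3 of 10 samples correlated best with their own number. The laminin median was −0.064 with the array set term. Without floored probes (42 of the 80 genes) the median was 0.68 for alpha integrins (3 genes), −0.84 for Timp (Timp1 alone) and 0.17 for all the genes. Without 1 sample the collagen median ran from −0.19 (without bGAL replicate 2) to 0.13 and the Adamts median from 0.020 (without bGAL replicate 2) to 0.33. Signs turned for Col4a1, Lamb1 and Timp3 with array weights (−0.030, −0.11 and −0.090), for Lamc1 and Itga3 with the array set term (−0.82 and −0.13), and without 1 sample for Lamb1 (−0.052 to 0.40), Itga3 (−0.020 to 0.093) and Timp3 (−0.054 to 0.43). With the array set term other differences moved by over 1.5 times, to 2.09 for Lama1, 1.499 for Itgb2, −0.37 for Itgb4, −0.32 for Col3a1, 0.13 for Col4a1 and 0.082 for Lamb1, and with quantile normalisation to 1.80 for Itga1, 0.072 for Lamb1 and 0.14 for Timp3. The causes were not tested. Over the 24 named genes and all alternatives, 385 values kept their sign and side of the threshold, 6 passed it and 9 turned sign.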
